A study of Mus musculus with 4 samples.

Results

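The genes described here make, recycle and use glutathione or remove reactive oxygen species, and they were measured in the mouse melanoma line B16 and in 3 lines passaged from it through mice. They were chosen by their gene symbols, with no measured value in the rule, although earlier results of these data were known. The set took every glutathione S-transferase named by the symbol Gst with class letter a, k, m, o, p, t or z, every glutathione peroxidase (Gpx) and every peroxiredoxin (Prdx) on the array, together with named genes of glutathione synthesis, the regulators NFE2L2 and KEAP1, the thioredoxin system, the superoxide dismutases, catalase, the microsomal transferases and the metallothioneins. The rule found 51 gene symbols, carried by 61 probes, of 15694 symbols and 33012 probes on the array. One of these entries lists 2 genes together, Gsta2 and Gsta1, and Srxn1 has no probe under that symbol.

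All 4 lines have the C57Bl6 background and were grown in the same medium with 20% fetal bovine serum. The starting cells were B16F1. B16-RI is a culture of the lymph node metastases that formed after 1 round of intradermal growth in C57BL6 mice, and a second round started from B16-RI gave a lymph node line, B16-RII, and a lung line, B16-RIIL. Each passaged line is thus a single recultured line, and the RNA of each came from 2 passage numbers pooled. One array per line was analysed, the one that matches a sample of the labels, so no difference given here has a replicate check, and every comparison of a passaged line uses the same B16 array.

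Glutathione is a small peptide that makes up most of the non-protein thiol in an animal cell. Glutamate-cysteine ligase, made of the catalytic subunit GCLC and the modifier subunit GCLM, makes its precursor, glutathione synthetase (GSS) completes it, and glutathione reductase (GSR) returns the oxidised form to the reduced form with NADPH. Peroxidases spend glutathione on peroxides and transferases attach it to reactive compounds. The transcription factor NFE2L2, held back by its adaptor KEAP1, binds antioxidant response elements in front of many of these genes, and pigment cells are known for a high load of peroxides and quinones because melanin synthesis itself is oxidative.

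Matches to the core letters of that element are shown for members described in the following paragraphs. The core TGACNNNGC was searched on both strands in the 250 bases before each transcription start of the RefSeq table (GRCm38.p6). Of the 51 entries, 43 had a window there, and 10 of these 43 held the core (23.3%), beside 11.5% of the 27025 genes in the table. The lines give 29 bases in the direction of the gene, with the core in capitals. In Prdx1 and Mt2 the core overlaps TGACTCA, the letters of an AP-1 site.
Gclm, the modifier subunit, chr3:122245413-122245441, plus strand: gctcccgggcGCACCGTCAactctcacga
G6pdx, which supplies NADPH, chrX:74428919-74428947, minus strand: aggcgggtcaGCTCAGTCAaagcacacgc
Txnrd1, the cytosolic thioredoxin reductase, chr10:82859104-82859132, plus strand: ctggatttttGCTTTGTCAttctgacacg
Prdx1, a cytosolic peroxiredoxin, chr4:116685456-116685484, plus strand: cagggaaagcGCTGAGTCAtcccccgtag
Nfe2l2 itself, chr2:75704885-75704913, minus strand: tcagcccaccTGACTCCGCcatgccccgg
Mgst1, a microsomal transferase, chr6:138140461-138140489, plus strand: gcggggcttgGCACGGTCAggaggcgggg
Mt2, a metallothionein, chr8:94172529-94172557, plus strand: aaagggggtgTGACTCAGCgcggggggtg
The core was also found for Gsta3, Gstm5 and Sod1. Gclc, Gsr, the entry of Gsta2 and Gsta1, Gsta4, Gstt2, Hmox1, Prdx6 and Sod3 had no window under these symbols and were not searched. A match is a description of letters and not evidence of binding.

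Each probe gave a single chemiluminescence signal, and a probe counted as detected when its signal-to-noise ratio was at least 3 and its flag at most 5000. Between 13872 and 14855 probes were detected per array. The deposited values of the passaged arrays were offset from those of B16, by 0.21 log2 units for B16-RI, 0.41 for B16-RII and 0.22 for B16-RIIL as the median over probes detected everywhere, and the offset differed between the 2 sets of probes that had different divisors. The values given here are centred signals, in which these offsets were removed from each passaged array while B16 stayed as deposited, and signals of different probes are not read as expression levels of one gene against another. A member was called above or below when it differed by at least 1 log2 unit (2-fold) and was detected on the brighter array. Where the dimmer array was undetected, the ratio rests on a noisy signal and is not exact. As a check of the label, all 8 melanocyte markers on the array were detected on each of the 4 arrays. Of 6 markers each, 1 to 2 were detected for lymphocytes (summed signal 59.9 to 65.7 over the arrays), 1 to 2 for macrophages (5.57 to 8.50), 1 to 3 for fibroblasts (8.91 to 16.9) and 0 to 1 for endothelium (2.47 to 3.51). Of 5 lung epithelium markers 0 to 2 were detected (2.24 to 5.13). Their part in the values of single genes was not tested.

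Most of the pathway kept a level within 2-fold of B16. Of the 51 members, 37 were detected on all 4 arrays, 9 on some and 5 on none, the last being Gpx5, Gpx7, Gstp2, Prdx4 and the brighter probe of Gpx2. On B16-RI, 4 of the 42 members detected on the brighter array were above B16 and 4 were below, which is 9.52% each, beside 5.92% above and 8.89% below over all genes. On B16-RII, 5 of 44 were above and 4 below, that is 11.4% and 9.09%, beside 6% and 8.37% over all genes. On B16-RIIL, 5 of 44 were above and 2 below, that is 11.4% and 4.55%, beside 7.3% and 7.24%. Among the 37 members detected on all 4 arrays, 32, 33 and 33 stayed under 2-fold on the respective arrays. The counts above B16 depend on the scaling, as do the shares over all genes. On B16-RII 4 to 11 members were above over the 6 scalings (9.09% to 24.4%, beside 6.86% and 13% of all genes under the same settings) and 2 to 4 were below (5.54% to 8.37% of all genes). On B16-RIIL 5 to 12 were above (11.4% to 27.3%, beside 7.3% and 12.6%) and 2 to 4 were below (5.93% to 8.06% of all genes). On B16-RI 4 to 5 were above and 3 to 4 below, beside 5.92% to 8.07% and 7.05% to 9.09% of all genes. With 1 array per line, how far these shares differ from those over all genes cannot be judged. The median difference of the detected members was -0.09 log2 units on B16-RI, 0.11 on B16-RII and 0.18 on B16-RIIL, beside -0.01, 0.03 and 0.04 for all genes.

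Of the 11 members past 2-fold in at least 1 passaged line, 5 were past it the same way in all 3, which share the B16 array and a line of descent. Over all genes 2552 were past 2-fold in at least 1 line and 461 the same way in all 3, that is 24.9% and 4.49% of the genes detected on a brighter array, beside 23.9% and 10.9% of the members. Gsta4, Gstk1 and Sod3 were above B16 on all 3 passaged arrays, and Gpx3 and Mgst1 were below on all 3. These 5 genes stayed past 2-fold under each of the 6 scalings compared. Nfe2l2 was above on B16-RI and B16-RII, and the entry of Gsta2 and Gsta1 was below on the same arrays. Nqo1 and Gstt1 on B16-RIIL and Mgst2 on B16-RII were above on 1 array each, while Gstz1 on B16-RI and Gstt1 on B16-RII were below on 1. In a bulk culture a lower signal can come from fewer cells that express a gene or from less RNA per cell, and these cannot be told apart.

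**Figure D1:**
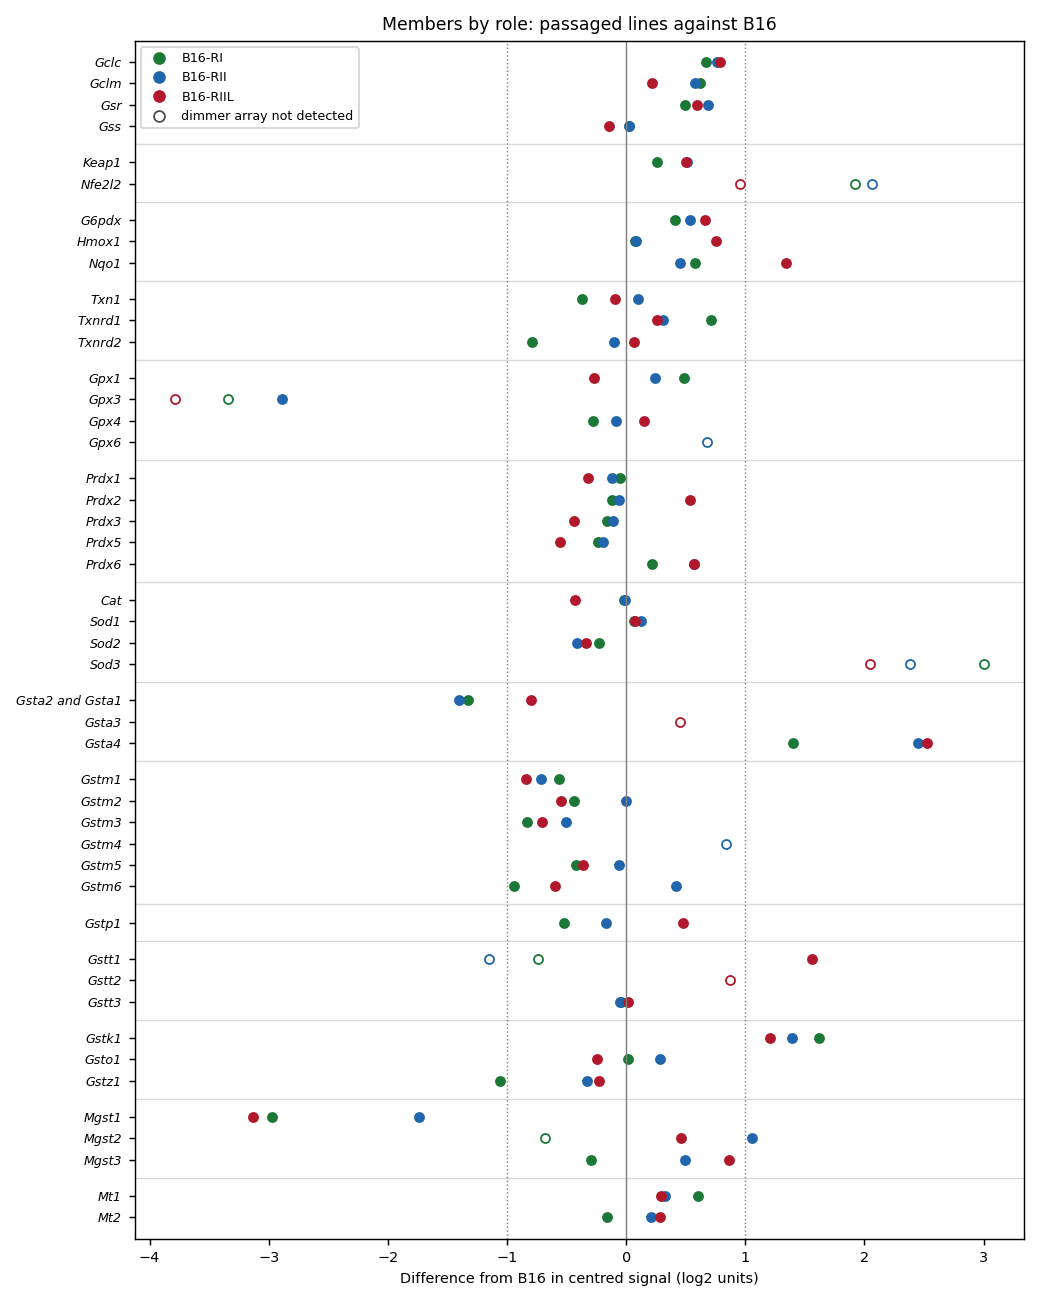
Log2 difference in centred signal from B16 for the 46 members detected on at least 1 array, ordered by role, with 1 dot per passaged line (B16-RI green, B16-RII blue, B16-RIIL red), open where the dimmer array was not detected, and dotted lines at -1 and 1. Most dots lie between the dotted lines, with Gsta4, Gstk1 and Sod3 to the right and Gpx3 and Mgst1 to the left in all 3 lines.

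Of the enzymes of glutathione synthesis and recycling, Gclc and Gsr were brighter than B16 on all 3 passaged arrays by less than 2-fold, Gclm was so on B16-RI and B16-RII, and Gss was nearly level. Gclc, the catalytic subunit of the rate-limiting ligase, gave 32.7 on B16, 52.1 on B16-RI, 55.4 on B16-RII and 56.5 on B16-RIIL. The passaged lines lay 0.67, 0.76 and 0.79 log2 units above B16, close to each other, and this direction held under all 6 scalings. Gclm, the modifier subunit whose core match is printed above, gave 315 on B16, 484 on B16-RI, 470 on B16-RII and 367 on B16-RIIL. Its differences were 0.62, 0.58 and 0.22, and the last ran from -0.03 to 0.22 over the scalings, so that on B16-RIIL its direction is not settled.

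Gsr, the reductase, gave 33.7, 47.6, 54.2 and 51.1 in the same order of arrays, or 0.50, 0.68 and 0.60 log2 units above B16. Gss, the second enzyme of synthesis, stood nearly level with 16.1, 16.4, 16.4 and 14.6. Its differences were 0.03, 0.02 and -0.15, and the last changed sign with the scaling. For these 4 genes together the median difference was 0.56 on B16-RI, 0.63 on B16-RII and 0.41 on B16-RIIL, each positive under all 6 scalings, and 0 of the 4 passed 2-fold on any array on the centred scale. Under the other scalings Gclc did so on B16-RI in 1, on B16-RII in 2 and on B16-RIIL in 4 of 6, and Gsr on B16-RII and on B16-RIIL in 2 each.

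Nfe2l2, the activator of the pathway, was not detected on B16 and was dim where it was detected. Nfe2l2 gave 0.70 on B16, 2.65 on B16-RI, 2.92 on B16-RII and 1.36 on B16-RIIL, with signal-to-noise ratios of 1.93, 6.37, 10.0 and 3.43. Set against the undetected B16 signal, it was 3.79-fold higher on B16-RI and 4.18-fold on B16-RII. The ratio on B16-RIIL, 1.94-fold, missed the limit. Keap1, its inhibitor, gave 82.5, 98.7, 117 and 117, which is 0.26, 0.51 and 0.51 log2 units above B16. Keap1 passed 2-fold on B16-RII and on B16-RIIL in 1 of 6 scalings each. Both partners were thus brighter than B16 on every passaged array.

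Of the enzymes Nqo1, Hmox1 and G6pdx, whose genes NFE2L2 is known to drive, Nqo1 passed 2-fold on B16-RIIL and the others did not on any array. Nqo1 reduces quinones without forming radicals, and it gave 3.97 on B16, 5.92 on B16-RI, 5.44 on B16-RII and 10.1 on B16-RIIL. Its differences were 0.58, 0.45 and 1.34, so the lung line stood 2.54-fold above B16. Hmox1, the inducible haem oxygenase, gave 73.9, 77.6 and 78.0 on B16, B16-RI and B16-RII and 125 on B16-RIIL. The first 3 arrays were nearly equal, and B16-RIIL was 0.76 log2 units above B16, a value that ran up to 1.27 over the scalings and passed the limit in 3 of 6. G6pdx, the first enzyme of the pentose phosphate pathway, gave 42.4, 56.3, 61.7 and 67.3, or 0.41, 0.54 and 0.67 log2 units above B16.

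**Figure D2:**
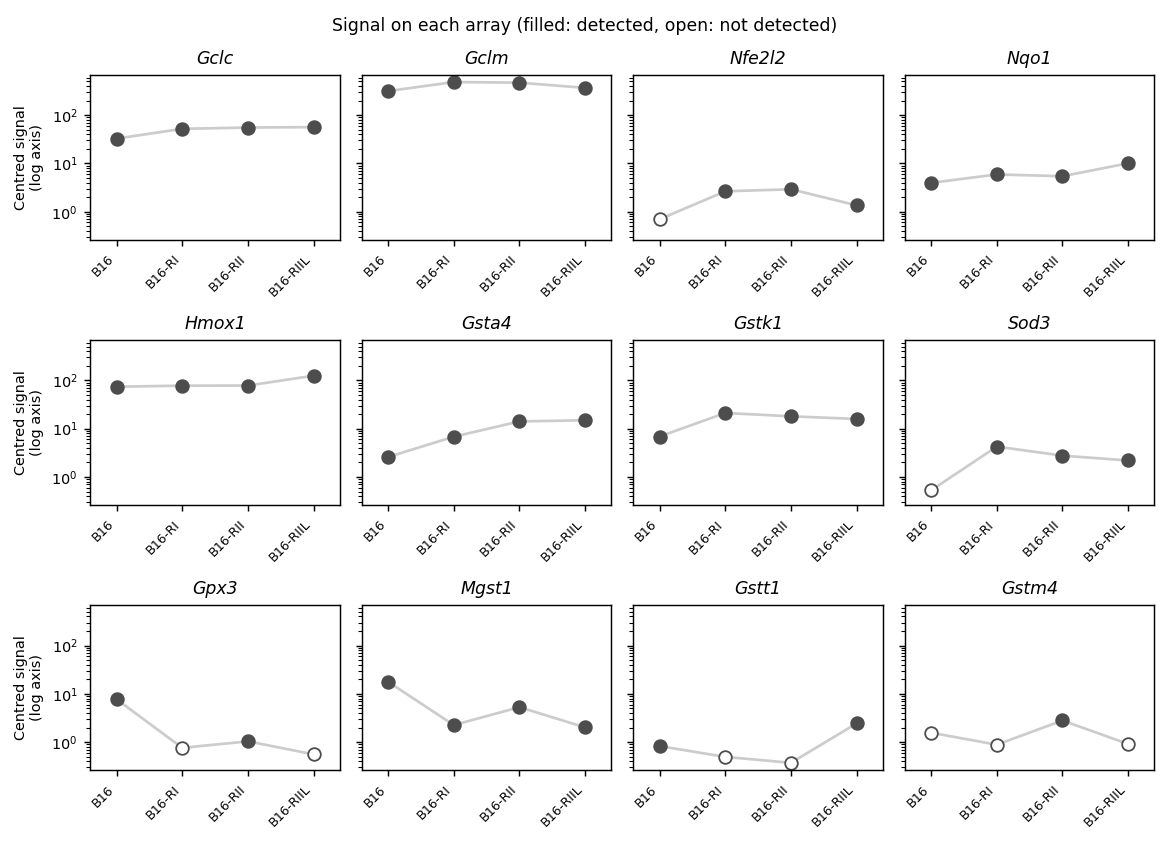
Centred signal of 12 members on the arrays of B16, B16-RI, B16-RII and B16-RIIL, on a log axis, with filled points for detected and open points for undetected signals; levels of different panels are not comparable because each probe has its own response. Gclc is higher on all 3 passaged arrays, Nqo1 and Hmox1 are highest on B16-RIIL, and Gpx3 and Mgst1 are highest on B16.

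In the thioredoxin system, which reduces disulphides beside glutathione, differences stayed under 2-fold. Txnrd1, the cytosolic reductase, gave 38.7 on B16, 63.3 on B16-RI, 48.1 on B16-RII and 46.3 on B16-RIIL. It was 0.71 log2 units above B16 on B16-RI and 0.31 and 0.26 on the others, where B16-RIIL changed sign with the scaling. Txnrd2, the mitochondrial reductase, lay 0.79 log2 units below B16 on B16-RI, with 5.40 against 3.13, and within 0.5 log2 units on the other arrays. Txn1 itself, the thiol carrier, gave 3.89, 3.01, 4.17 and 3.64.

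Among the glutathione peroxidases the secreted enzyme Gpx3 had the largest difference. Gpx3 gave 7.72 on B16, 0.76 on B16-RI, 1.04 on B16-RII and 0.56 on B16-RIIL. It was detected on B16 and B16-RII and not on the other arrays. It lay 7.43-fold below B16 on B16-RII. The undetected signals lay 10.1-fold below on B16-RI and 13.8-fold below on B16-RIIL. B16 stood apart from all 3 passaged lines, which lay at or near the limit of detection.

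Gpx1, the cytosolic peroxidase, gave 60.6 on B16, 84.9 on B16-RI, 71.5 on B16-RII and 50.3 on B16-RIIL. Its difference was 0.49 on B16-RI and 0.24 on B16-RII, and -0.27 on B16-RIIL, where the sign changed with the scaling. Gpx4, which reduces lipid peroxides in membranes, gave 262, 217, 247 and 291 with its brighter probe and 5.18, 5.53, 4.12 and 4.10 with the other, and neither probe differed from B16 by more than 0.34 log2 units on the centred scale, with a sign that changes with the scaling for at least 1 probe in each line. Gpx2, known from the gut epithelium, was undetected with its brighter probe. Its second probe was detected on B16-RI at 2.27 and on B16-RII at 1.59, 3.91-fold and 2.74-fold above the undetected 0.58 of B16. It was undetected on B16-RIIL at 0.57. The probes of Gpx2 thus gave different calls. Gpx6 was detected on B16-RII alone, at 1.47, which is 0.68 log2 units above the undetected 0.92 of B16 and past 2-fold in 3 of 6 scalings.

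The peroxiredoxins are thiol peroxidases that mostly work with thioredoxin. Of the 6 on the array, Prdx4 was undetected on all 4 arrays. The other 5 lay within 2-fold of B16 on the centred scale by the probes that represent them. Prdx2 on B16-RIIL passed 2-fold in 1 of 6 scalings. Prdx1, Prdx3 and Prdx5 lay on all 3 passaged arrays slightly below B16 on the centred scale, by up to 0.55 log2 units (Prdx5 on B16-RIIL), and the median of the family changed sign with the scaling. Prdx6, which also acts on phospholipids, gave 145, 169, 216 and 216 with its brightest probe, and a pair of other probes also lay above B16 on all 3 arrays. The dimmest of its 4 probes went the other way. It gave 1.54 on B16 and 1.52 on B16-RII. It was undetected on B16-RI at 0.54, 2.83-fold below B16, and on B16-RIIL at 1.03, also below B16. Prdx2, abundant in red cells, gave 149, 137, 143 and 216, so that B16-RIIL stood 0.54 log2 units above B16 while the others were level, and its second probe gave 47.7, 61.1, 58.4 and 71.6.

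The dismutases turn superoxide into peroxide, and catalase splits peroxide. Sod3, the secreted dismutase, was undetected on B16 at 0.53 and was detected on B16-RI at 4.25, on B16-RII at 2.76 and on B16-RIIL at 2.19. Against the undetected B16 signal these were 8.02-fold, 5.22-fold and 4.14-fold higher. Sod3 was thus above B16 in the 3 lines in which Gpx3, also secreted, was below it. Sod1, the cytosolic form, gave 132, 139, 144 and 139, level within 0.13 log2 units. Sod2, the mitochondrial form, gave 79.8, 68.0, 60.1 and 63.3, and Cat gave 20.9, 20.7, 20.8 and 15.5, so that neither reached 2-fold.

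Of the 11 members past 2-fold, 5 were glutathione S-transferases of the families named Gst, and they ran in both directions. Gsta4, an alpha class enzyme that conjugates the lipid peroxidation product hydroxynonenal, gave 2.59 on B16, 6.82 on B16-RI, 14.1 on B16-RII and 14.9 on B16-RIIL. It stood 2.63-fold, 5.45-fold and 5.76-fold above B16, and both lines of the second round were brighter than B16-RI. The alpha class entry of Gsta2 and Gsta1 ran the other way, with 67.4, 26.8, 25.5 and 38.8. It lay 2.51-fold below B16 on B16-RI, 2.65-fold below on B16-RII, past the limit in 5 of 6 scalings, and 1.74-fold below on B16-RIIL, past it in 3 of 6. Which of the 2 genes the probe reads cannot be told apart. Gsta3 was detected only on B16-RII, at 0.70, and on B16-RIIL, at 1.19.

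Gstk1, the kappa class enzyme of mitochondria and peroxisomes, gave 6.88 on B16, 21.1 on B16-RI, 18.0 on B16-RII and 15.9 on B16-RIIL. It was 3.07-fold, 2.62-fold and 2.31-fold above B16, with B16 the lowest of the 4. Gstz1, which acts in tyrosine breakdown, gave 2.13, 1.02, 1.70 and 1.82 and lay 2.08-fold below B16 on B16-RI, a call made in 1 of 6 scalings. Gsto1, an omega class enzyme, gave 143, 144, 174 and 120.4. Gstp1, the pi class enzyme, gave 342, 238, 305 and 476, so that B16-RIIL was the brightest, 0.47 log2 units above B16 and 0.64 above B16-RII.

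The 6 mu class genes on the array lie in 1 cluster on chromosome 3, and Gstm4 was detected neither on B16 nor on B16-RI or B16-RIIL. On B16-RI the other 5 lay below B16, with a median of -0.57 log2 units, and this direction held under all 6 scalings. None passed 2-fold on the centred scale, and Gstm6 did so in 1 of 6 scalings. On B16-RIIL the same 5 lay below with a median of -0.59 on the centred scale, none past 2-fold there, while Gstm1 passed it in 2 of 6 scalings and Gstm5 turned positive under some. On B16-RII the median was -0.03 and changed sign with the scaling. Gstm3, for example, gave 18.8 on B16, 10.6 on B16-RI, 13.3 on B16-RII and 11.6 on B16-RIIL, and Gstm1 gave 3.71, 2.51, 2.26 and 2.07. Mu class genes are close in sequence, so their probes may read each other's RNA.

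Gstm6 and Gstm4 separated the second-round lines. Gstm6 gave 4.93 on B16-RII and 2.44 on B16-RIIL, 2.02-fold lower, while its second probe gave 2.83 and 2.07 and missed the limit. That second probe was undetected on B16-RI at 1.54, 2.01-fold below its 3.10 on B16. Gstm4 was detected on B16-RII alone, at 2.81, and the undetected B16-RIIL signal was 3.07-fold lower.

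The theta class genes lie in a cluster on chromosome 10. Gstt1 was dim, with 0.83 on B16, undetected signals of 0.50 on B16-RI and 0.37 on B16-RII, and 2.44 on B16-RIIL. B16-RIIL was 2.94-fold above B16, and the undetected B16-RII signal was 2.22-fold below it, a call made in 3 of 6 scalings. Gstt2, in the same cluster, was detected on B16-RIIL alone, at 2.24, 1.82-fold above the undetected 1.23 of B16. It passed 2-fold there in the 5 scalings other than the centred one. Gstt3, next to Gstt1, was level with 18.2, 17.6, 17.5 and 18.3.

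The microsomal transferases are membrane enzymes unrelated in sequence to the cytosolic families. Mgst1, the detoxifying member, gave 17.8 on B16, 2.26 on B16-RI, 5.31 on B16-RII and 2.02 on B16-RIIL. It was detected on all 4 arrays and lay 7.86-fold, 3.34-fold and 8.78-fold below B16. Its promoter window holds a match to the core printed above. So does that of Gclm, which was brighter than B16 on B16-RI and B16-RII, and any link was not tested. Mgst2, which can make leukotriene C4, gave 2.52, an undetected 1.57, 5.25 and 3.47, so that B16-RII was 2.08-fold above B16, a call made in 5 of 6 scalings. Mgst3 gave 6.48, 5.28, 9.12 and 11.8, and B16-RIIL was 0.86 log2 units above B16, past 2-fold in the 5 scalings other than the centred one.

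The metallothioneins bind zinc and copper and also scavenge radicals. Their promoters carry metal response elements, whose core, TGCGCNC or TGCACNC on either strand, was found in 13 of the 43 members with a window (30.2%) and in 23.8% of all genes. The windows show 29 bases with the core in capitals.
Mt1, chr8:94179055-94179083, plus strand: cggtcccgctgTGCACACtggcgctccag
Mt2, chr8:94172479-94172507, plus strand: cgcagacccttTGCGCTCagctcctttgc
Mt1 gave 1562 on B16, 2365 on B16-RI, 1960 on B16-RII and 1912 on B16-RIIL with its brighter probe, and 169, 318, 338 and 327 with the other. The second probe was 0.91, 1.00 and 0.95 log2 units above B16 and reached the limit on B16-RII, while the brighter probe gave 0.60, 0.33 and 0.29. Mt2 gave 5.50, 4.91, 6.37 and 6.68 and stayed within 0.28 log2 units of B16.

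Probes of the same gene on the same arrays show how far probes disagree, which is only a part of the technical spread. Over 539 genes with at least 2 probes detected on all 4 arrays, the gap between the differences that both probes gave had a median of 0.21 (log2) for B16-RI, 0.26 for B16-RII and 0.30 for B16-RIIL, and its 90th percentile was 0.71, 0.78 and 0.82. On the centred scale the differences of Gclc, Gclm, Gsr, Keap1 and G6pdx lay under these 90th percentiles on every array. Under other scalings the differences ran higher, for Gclc up to 1.06, 1.32 and 1.30. The percentiles were taken on the centred scale alone. The spread does not hold the differences between cultures of a line, nor errors of RNA preparation and labelling that both probes share. It was taken over detected signals, so it says nothing of dim genes such as Sod3.

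**Figure D3:**
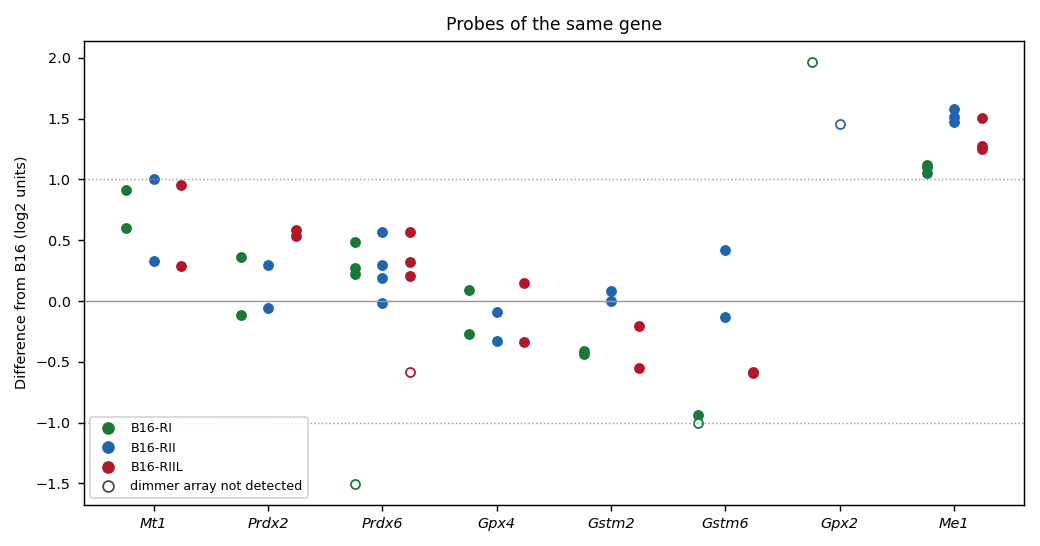
Log2 difference in centred signal from B16 for probes of Mt1, Prdx2, Prdx6, Gpx4, Gstm2, Gstm6, Gpx2 and Me1 in the 3 passaged lines. Points are drawn where the brighter array was detected and are open where the dimmer array was not. Probes of Mt1 and Me1 lie on the same side of B16 in every line. Probes of Prdx2, Prdx6, Gpx4, Gstm6 and Gstm2 lie on both sides of B16 in at least 1 line. For Gpx2 the second probe alone is drawn, above B16 on B16-RI and B16-RII.

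The members on chromosome 8, 6 in number, share a chromosome whose genes as a whole were brighter on B16-RIIL. They are Gsr, Hmox1, Mt1, Mt2, Nqo1 and Prdx2, all detected on the 4 arrays. On B16-RIIL all 6 were above B16, by 0.28 to 1.34 log2 units with a median of 0.57, while the 30 members placed on other chromosomes had a median of -0.12 and 14 of them were above. Both medians move with the scaling, to 1.03 and 0.17 as deposited and to 1.08 and 0.20 after median scaling. Over all genes detected on the 4 arrays, the median was 0.40 for 403 genes of chromosome 8 and 0.02 for 6702 genes of other chromosomes. On B16-RI and B16-RII the 6 members had medians of 0.28 and 0.27, beside 0.03 and 0.10 for the genes of chromosome 8. Against B16-RII, the B16-RIIL signal of the 6 differed by a median of 0.33, beside 0.30 for all genes of that chromosome. The values of Nqo1, Hmox1 and Prdx2 on B16-RIIL therefore stand beside a shift of their whole chromosome, and its part in them was not tested.

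**Figure D4:**
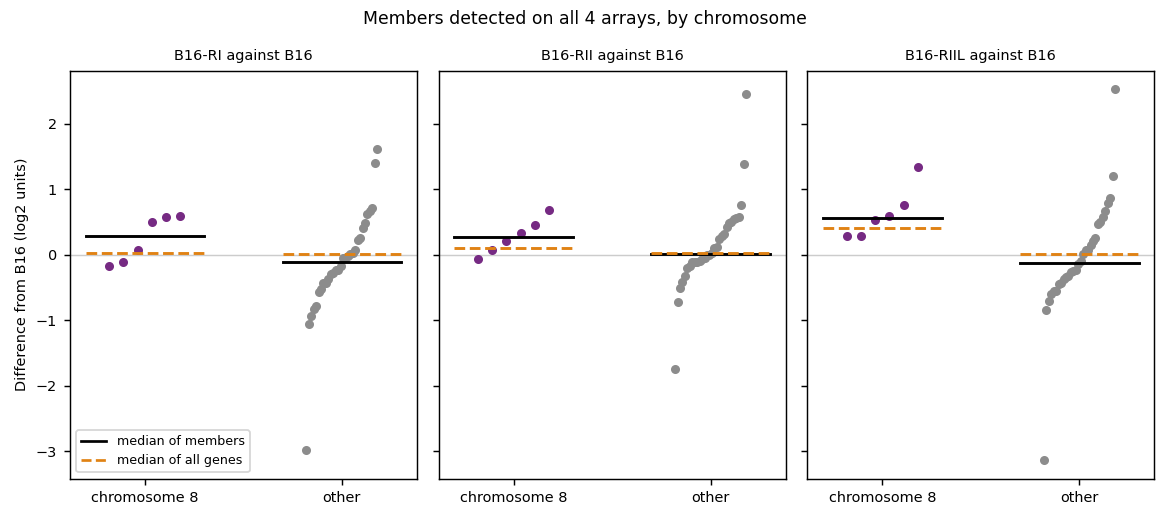
Log2 difference in centred signal from B16 for members detected on all 4 arrays, 6 on chromosome 8 and 30 on other chromosomes, in each passaged line, with a black line at the median of the members and a dashed orange line at the median of all genes. On B16-RIIL all 6 members of chromosome 8 lie above B16.

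The lung line and the lymph node line of the second round were also set against each other. Of 46 members detected on the brighter array, 2 were above on B16-RIIL (4.35%, beside 6.85% of all genes) and 4 were below (8.70%, beside 4.84%). Gstt1 was 6.54-fold higher on B16-RIIL and Gstt2 3.07-fold higher, each against an undetected B16-RII signal. Mgst1 was 2.62-fold lower, Nfe2l2 2.15-fold lower and Gstm6 2.02-fold lower, and Gstm4, undetected on B16-RIIL, was 3.07-fold lower. Nqo1 and Hmox1 were brighter on B16-RIIL by 0.89 and 0.68 log2 units, while Nfe2l2 itself was dimmer. All 6 mu class genes were dimmer on B16-RIIL, with a median of -0.42 log2 units, although Gstm3 changed sign under some scalings. Both lines descend from B16-RI, and each is represented by 1 array.

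Genes around the pathway were taken from a list of 69, of which 63 were on the array. Of those detected on the brighter array, 3 of 48 were above B16 and 2 below on B16-RI (6.25% and 4.17%, beside 5.92% and 8.89% of all genes). On B16-RII 3 of 48 were above and 1 below (6.25% and 2.08%, beside 6% and 8.37%). On B16-RIIL 4 of 47 were above and 0 below (8.51% and 0%, beside 7.3% and 7.24%). Their medians were 0.07, 0.10 and 0.13 log2 units. Set against B16-RII, B16-RIIL had 1 of 51 above and 1 below (1.96% each, beside 6.85% and 4.84% of all genes). Osgin1, Me1, Slc7a11 and Chac1 passed 2-fold on at least 2 passaged arrays. Osgin1, a growth inhibitor induced by oxidised lipids, which the file names 1700012B18Rik, gave 7.98 on B16, 44.4 on B16-RI, 51.7 on B16-RII and 46.7 on B16-RIIL. It was 2.47, 2.70 and 2.55 log2 units above B16, and it also lies on chromosome 8.

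Me1, the cytosolic malic enzyme that makes NADPH, gave 74.8, 160.2, 214 and 180.5 with its brightest probe, or 1.10, 1.52 and 1.27 log2 units above B16. Another probe gave 26.5, 57.6, 73.6 and 63.0, and the third gave 8.16, 16.9, 24.4 and 23.1, so that all 3 probes passed 2-fold on all 3 arrays, although the brightest did so on B16-RI in 4 of 6 scalings and on B16-RIIL in 5. Slc7a11, the cystine carrier that feeds glutathione synthesis, was undetected on B16 at 0.87 and on B16-RII at 1.74, and was detected on B16-RI at 2.29 and on B16-RIIL at 5.78. Against the undetected B16 signal it was 6.65-fold higher on B16-RIIL. On B16-RI it was 2.63-fold higher, with a signal-to-noise ratio of 3.05 that was close to the limit. Slc3a2, the heavy chain it pairs with, gave 54.3, 45.4, 45.2 and 60.3 and stayed within 2-fold. Chac1, which breaks glutathione down in the cytosol and which the file names 1810008K03Rik, gave 82.4, 13.7, 35.3 and 51.6. It lay 2.59 log2 units below B16 on B16-RI and 1.22 below on B16-RII, the latter past 2-fold in 4 of 6 scalings, and 0.68 below on B16-RIIL.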

How the data were processed

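RNA of 4 cultured lines, B16, B16-RI, B16-RII and B16-RIIL (the last pair written B16-R2 and B16-R2L in the paper), was measured on Applied Biosystems arrays of the mouse genome. For 33012 probes the authors deposited a raw and a normalized intensity. The deposited normalized intensity was obtained from the raw one with 2 divisors on each array, 1 for 16524 probes and 1 for the other 16488, and is not quantile normalized, the method the paper names. The deposited quality scores, a signal-to-noise ratio and a flag, come from the analyzer, and the paper's limits of 3 and 5000 were applied on the single array. Of the table's columns 16 were used. A further 30 columns (20 with values of single arrays and 10 with ratios) belong to second arrays and were not used, since no labelled sample matches them although the study describes duplicates, and 14 derived columns of log2 values and ratios were not needed.

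For the centred signal, each probe set on each passaged array was divided by the factor that sets its median log2 difference from B16 to 0 over the probes detected on all 4 arrays (11604 in both sets). No pseudocount was added. A gene was represented by its probe with the highest mean log2 signal. Where the dimmer side was not detected, its own signal was used, or the lowest signal detected on the same array if that was higher. Such a ratio rests on a noisy undetected signal and is neither exact nor a lower limit. No member probe exceeded the flag limit. With 1 array per line no test was run, and precision is limited by the number of arrays. Members, lists and rules were chosen with earlier results of these data known. Named were the members past 2-fold in any of the 4 comparisons by any probe, the core genes of the pathway, and genes of the wider list past 2-fold on at least 2 passaged arrays, with other members as examples.

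The alternatives were other scalings, detection filters and size limits. The counting rules were tested on simulated data. The RefSeq table (GRCm38.p6) gave a current name to 16186 of the 17302 probes with a symbol and to 50 of the 51 members, and the file names no genome build. Protein identity within the families was planned and was not run. Calculations used Python 3.11.15, numpy 2.4.6, pandas 2.3.3 and matplotlib 3.10.9.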

Additional observations from a re-analysis of the deposited data

How the results depend on the processing

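Of 690 alternative values of 130 results, 527 stayed on the same side of the limit or within the permitted range, and 0 changed the direction of a called value. No paired analysis was run, because 1 array per line matches a sample of the labels and the second arrays were not used. For the same reason no replicate was left out. Shares in parentheses are those of all genes under the same setting. On the deposited scale, members above B16 numbered 9 on B16-RII (12.3%) and 10 on B16-RIIL (11.8%) and 2 lay below on B16-RII (5.54%), the member median on B16-RII was 0.51, and the median of the chromosome 8 members on B16-RIIL was 1.03. After median scaling the same counts above were 11 (13%) and 12 (12.6%), the medians were 0.55 and 1.08, and members on other chromosomes had a median of 0.20 on B16-RIIL. On B16-RIIL, 75th percentile scaling gave 9 above (8.25%) and 4 below (7.99%), and both probe sets centred together gave 8 (7.8%) and 4 (8.06%). Requiring detection on both arrays left 2 above on B16-RI (1.42%), 3 on B16-RII (1.7%), 0 on B16-RIIL against B16-RII (1.71%), and 1 below on B16-RIIL (2.23%). With no detection filter 5 were below on B16-RIIL (12%) and 7 below against B16-RII (5.98%). At 1.5-fold 8 were above (10.4%) and 9 below (15.7%) on B16-RI, 9 above on B16-RII (12.2%), 12 above (14.7%) and 6 below (13.3%) on B16-RIIL, and 8 above (12.7%) and 7 below (9.44%) against B16-RII. At 4-fold 1 was above (1.93%) and 2 below (2.33%) on B16-RI, 3 above (1.52%) and 1 below (2.83%) on B16-RII, 2 above on B16-RIIL (2.05%), and 1 above (1.95%) and 0 below (1.07%) against B16-RII. In the wider list the deposited scale gave 1 below on B16-RI (7.05%), 8 above (12.3%) and 0 below (5.54%) on B16-RII and 2 below against B16-RII (7.56%), and quantile normalization gave 1 below on B16-RI (8.27%) and 2 below against B16-RII (5.25%). Signals near the detection limit, such as those of Nfe2l2, Sod3, Gstt1, Gstt2, Gstm4 and Slc7a11, carry the least precision.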
